A study of Caenorhabditis elegans with 18 samples.

Results

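Nuclear RNA interference (RNAi) and heterochromatin genes were examined as a set of 9 Caenorhabditis elegans genes, taken by name from the 42400 genes listed in each mixed-population table and the 42048 listed in each young-mother table. The set held the nuclear RNAi genes nrde-1, nrde-2, nrde-4 and emb-4, the histone methyltransferase genes met-2, set-25 and set-32, and the heterochromatin protein genes hpl-1 and hpl-2. All 9 were found in all 6 deposited tables. For each gene the tables give the small RNAs (sRNAs) that map to it in whole worms, and 1 table gives its messenger RNA (mRNA).

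In nuclear RNAi, Argonaute proteins loaded with sRNAs enter the nucleus, find nascent transcripts, and recruit NRDE proteins that inhibit RNA polymerase II and direct methylation of histone H3. Histone methyltransferases and HP1 proteins, which bind methylated histone H3, then hold such loci in a repressed state, and in the germline the silencing can pass to descendants. The sRNAs measured here can themselves be made against the mRNAs of silencing genes, so the genes of the pathway are also its possible targets. MEG-3 and MEG-4 are disordered proteins of the germ granules in embryos. RDE-11 is a RING-type zinc finger protein that works with RDE-10 in the amplification of secondary sRNAs.

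The study held 18 libraries in 9 groups of 2, from worms grown at 20 C. Mixed populations on NA22 bacteria gave sRNA libraries of the wild-type strain N2 and of 4 independently generated meg-3 meg-4 lines. All 4 lines carried meg-3(ax3055), with meg-4(ax3052) in line 1, meg-4(ax4310) in line 2 (JH3672), meg-4(ax4311) in line 3 (JH3673) and meg-4(ax4312) in line 4 (JH3674). Young mothers on HT115 bacteria with the empty RNAi vector L4440 gave mRNA libraries of N2 and line 1 (JH3475), and sRNA libraries of N2 and rde-11(hj37). N2 carried none of these alleles, and each line was a single strain, so allele and strain background cannot be told apart. Line 2 carries conflicting labels, young mother in the group field and mixed population in title and source, and was taken as mixed. The labels do not say that replicates were separate cultures, so p-values measure the spread between these libraries, which may be technical. The series title concerns sRNAs that target RNAi genes and the mRNAs of those genes in meg-3 meg-4 worms.

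sRNA libraries held 3.82 to 7.47 M reads on genes (M, 1e6), and mRNA libraries held 22 to 45.2 M. Lines 2 to 4 were deeper than N2 and line 1, so line and depth cannot be told apart in those comparisons. meg-3 mRNA stood at 93.4 in N2 and 0.298 in line 1, and meg-4 mRNA at 44.4 and at 0 in both line 1 libraries, which matched the labels. No sRNA table measures rde-11 mRNA, so the rde-11 label was not checked. The same 2 N2 libraries served all 4 line comparisons, so these comparisons are not independent. sRNA values are RPM, reads on a gene scaled to a library total of 1e+06, and so are shares of a library, and most genes had lower shares in the lines. The median log2 change over the genes tested was −0.34, −0.56, −0.59 and −0.77 in lines 1 to 4 and 0.16 in rde-11. After rescaling by the trimmed mean of M-values (TMM), which centres the bulk of genes, these medians were −0.04, −0.11, −0.05, −0.18 and 0.05. Higher values made up 18.1, 9.94, 9.69 and 7.49% of the genes called in lines 1 to 4 as deposited and 45.2, 55.1, 64.9 and 51% under TMM. In the rde-11 comparison that share went from 68.1 to 47.7%. Changes of the 9 genes are therefore given under both scalings. In whole worms fewer cells that express a gene and less RNA per cell cannot be told apart.

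Scaled to most genes (TMM), limma called nrde-1 sRNAs higher and nrde-4 and emb-4 sRNAs lower in lines 2 and 4 of the meg-3 meg-4 worms. It called nrde-1 higher in line 3 as well, and the other 6 genes in no line under TMM. DESeq2 and the authors' deposited adjusted p-values called nrde-4 and emb-4 in no line. These counts are read against the shares of all tested genes given below, not as a result about the 9 genes. A gene was called at a Benjamini-Hochberg adjusted p below 0.05 in limma, fitted to log2(value + 1) of every gene whose 4 libraries in the table averaged 10 or more. All 9 genes passed that filter in each sRNA table. On the RPM as deposited, 0 of the 9 were called higher in any line, against 3.03, 5.83, 5.83 and 5.4% of all tested genes in lines 1 to 4. Called lower were 0, 4, 6 and 7 of the 9, against 13.8, 52.8, 54.4 and 66.7% of all tested genes. Both libraries of a line lay below both N2 libraries for 3, 7, 8 and 8 of the 9, against 56.2, 71.4, 71.7 and 76.7% of tested genes, and above both for 0, against 9.43, 9.93, 10.5 and 8.59%. The median change of the 9 was −0.25, −0.47, −0.52 and −0.62 in log2, each above the median of all genes tested. Under TMM, limma called nrde-1 higher in lines 2, 3 and 4, where 12.2, 16.1 and 13.6% of tested genes were called higher. It called nrde-4 and emb-4 lower in lines 2 and 4, where 9.93 and 13.1% were called lower, and neither in line 3, where 8.67% were. In line 1 TMM called 0 of the 9 higher and 0 lower, beside 6.35 and 7.71% of tested genes. Whole reads could be recovered from the RPM, and edgeR and DESeq2 on those reads also called nrde-1 higher in lines 2, 3 and 4 and no other member higher, beside 5.88, 12, 15.9 and 13.4% of tested genes called higher in lines 1 to 4 by edgeR and 4.93, 12, 13.3 and 15% by DESeq2. edgeR called 0, 2, 0 and 2 members lower, the pairs again being nrde-4 and emb-4, beside 7.62, 10.1, 8.94 and 13.3% of tested genes. DESeq2 called 0 lower in each line, beside 5.6, 6.21, 5.59 and 5.68%.

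**Figure D1:**
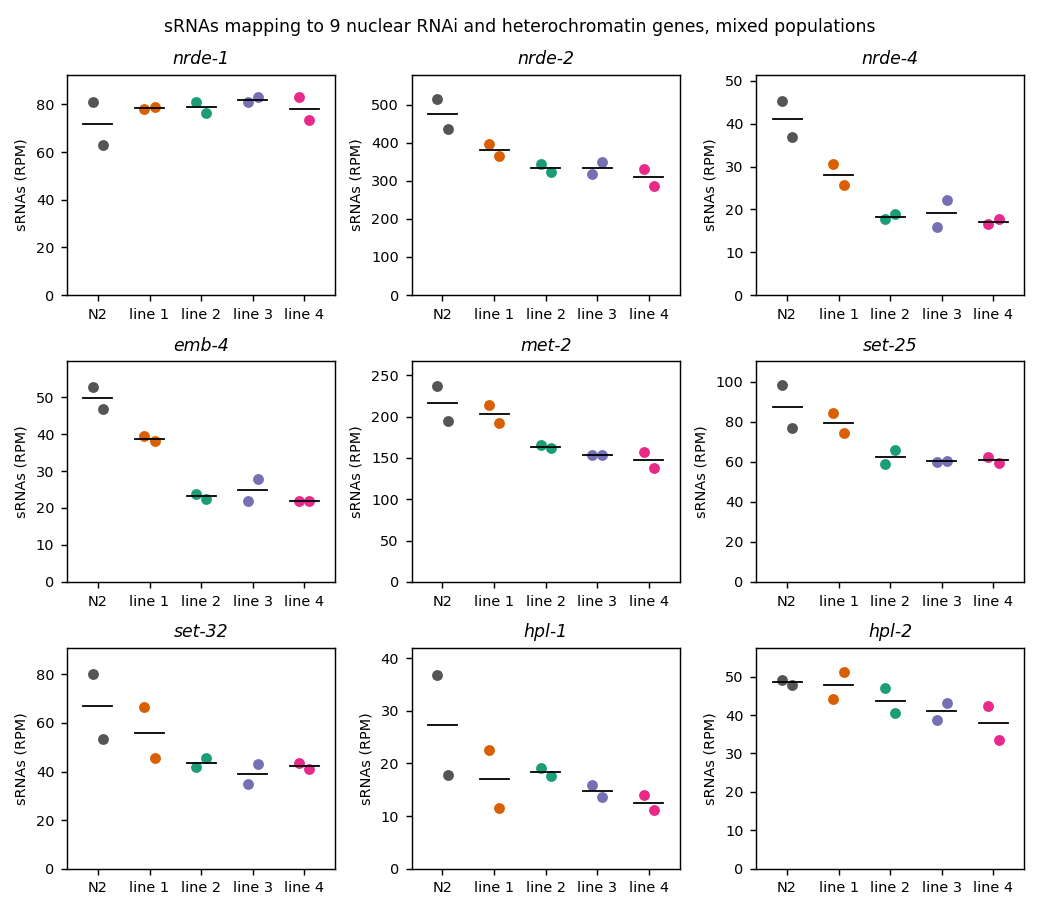
sRNAs mapping to each of the 9 genes in mixed populations, in RPM, for N2 and meg-3 meg-4 lines 1 to 4. Points are single libraries and black lines are group means. nrde-1 stayed between 62.8 and 83.1 RPM throughout. nrde-4 and emb-4 were lower in every library of lines 2 to 4 than in either N2 library. So were nrde-2, met-2, set-25, set-32 and hpl-2. Both libraries of a line lay below both N2 libraries for 71.4, 71.7 and 76.7% of tested genes in lines 2, 3 and 4.

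nrde-1 encodes a factor that associates with chromatin and with the pre-mRNA of silenced genes. Its sRNAs stood at 80.9 and 62.8 RPM in N2 and, for lines 1 to 4 in turn, 77.9 and 78.9, 81.1 and 76.3, 80.8 and 83.1, and 82.9 and 73.2. Every line overlapped the N2 range, and the lowest of the 10 libraries was an N2 library. The log2 changes of 0.14, 0.14, 0.20 and 0.13 had limma adjusted p-values of 0.684, 0.585, 0.441 and 0.629. Against the medians of all genes tested these changes were 0.47, 0.70, 0.79 and 0.90 higher, and 84.9, 87.6, 88.6 and 88.7% of tested genes had a lower change. Under TMM the log2 changes were 0.44, 0.61, 0.76 and 0.73, with standard errors of 0.19, 0.17, 0.20 and 0.18 and limma adjusted p-values of 0.181, 0.0331, 0.00684 and 0.0142. The authors' deposited tables give nrde-1 log2 changes of 0.43, 0.63, 0.73 and 0.77 with adjusted p-values of 0.575, 0.0752, 0.0251 and 0.0184. Those tables call 0, 0, 1 and 1 of the 9 genes higher in lines 1 to 4, beside 3.73, 6.37, 7.42 and 7.56% of the genes given an adjusted p, and call 0 lower, beside 4.7, 4.4, 4.22 and 4.54%. Under TMM the nrde-1 call held without either N2 library and was lost without either library of the line in question, when limma adjusted p-values lay between 0.102 and 0.258 at log2 changes of 0.61 to 0.77.

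nrde-4, whose product is needed for NRDE-1 to reach chromatin, had lower sRNA shares in lines 2 to 4. N2 libraries held 45.3 and 36.9 RPM, line 1 held 30.5 and 25.6, line 2 held 17.8 and 18.8, line 3 held 16 and 22.2, and line 4 held 16.6 and 17.7. All 8 libraries of the lines lay below both N2 libraries, with line 1 between N2 and the other lines. Means fell from 41.1 ± 5.96 RPM (SD, n = 2) to 18.3 ± 0.746, 19.1 ± 4.43 and 17.2 ± 0.778 in lines 2, 3 and 4, log2 changes of −1.12, −1.08 and −1.21 with standard errors of 0.23 and limma adjusted p-values of 2.65e-05, 0.000216 and 8.1e-06. In line 1 the mean was 28.1 ± 3.43, a log2 change of −0.53 with a limma adjusted p of 0.132. These changes were 0.56, 0.49 and 0.44 below the median of all genes in lines 2 to 4, where 9.09, 11.1 and 12.5% of tested genes had a lower change. Under TMM they were −0.66, −0.53 and −0.62, with limma adjusted p-values of 0.025, 0.0672 and 0.0317. As deposited, the call in line 3 was lost without line 3 replicate 1 (log2 change of −0.85, limma adjusted p = 0.111), and those in lines 2 and 4 held without each library in turn.

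emb-4 encodes a conserved intron-binding helicase that interacts with nuclear Argonautes, and its sRNAs followed those of nrde-4. N2 libraries held 52.7 and 46.9 RPM, line 1 held 39.3 and 38.1, line 2 held 23.8 and 22.5, line 3 held 21.9 and 27.9, and line 4 held 21.8 and 22. Again no library of a line reached the N2 range. From 49.8 ± 4.13 RPM in N2, the means fell to 23.1 ± 0.871, 24.9 ± 4.26 and 21.9 ± 0.0949 in lines 2, 3 and 4, with log2 changes of −1.07, −0.98 and −1.15 and limma adjusted p-values of 4.27e-05, 0.000483 and 1.6e-05. The mean of line 1 was 38.7 ± 0.89, with a log2 change of −0.35 and a limma adjusted p of 0.287. Under TMM the changes in lines 2, 3 and 4 were −0.61, −0.43 and −0.55 with limma adjusted p-values of 0.0248, 0.13 and 0.0365. Under TMM the calls of emb-4 and of nrde-4 in lines 2 and 4 held without N2 replicate 2. They were lost without N2 replicate 1 or without either library of the line. Without N2 replicate 2 the TMM log2 changes in line 3 were −0.67 for nrde-4, −0.51 for emb-4, −0.47 for set-32 and −0.71 for hpl-1. Without N2 replicate 1 these changes were −0.39, −0.35, 0.10 and 0.28. The share of all tested genes called was not computed for these fits. The deposited adjusted p-values for nrde-4 and emb-4 in the authors' deposited tables lay between 0.219 and 0.442 in lines 2 to 4. As deposited in RPM, the emb-4 call in line 3 was also lost without line 3 replicate 1 (log2 change of −0.81, limma adjusted p = 0.132).

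nrde-2, which encodes the NRDE factor that meets the Argonaute on nascent RNA, carried 516 and 435 RPM in N2 and, for lines 1 to 4 in turn, 396 and 364, 344 and 324, 319 and 349, and 332 and 286. All libraries of the lines lay below both N2 libraries. Its log2 changes of −0.50, −0.51 and −0.62 in lines 2 to 4 were called lower, with limma adjusted p-values of 0.0292, 0.0331 and 0.0138. They were 0.06, 0.09 and 0.15 above the median of all genes tested, and under TMM they were −0.03, 0.06 and −0.01, so the sign turned in line 3. Each of the 3 calls was lost without either library of the line.

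The ratio of nrde-1 to nrde-4 reads within a library does not depend on scaling. It was examined after the values were seen and is given as a description. N2 libraries gave 1.79 and 1.7, those of line 1 gave 2.56 and 3.08, those of line 2 gave 4.56 and 4.05, those of line 3 gave 5.06 and 3.74, and those of line 4 gave 4.99 and 4.13. Every line library lay above both N2 libraries, and line 1 lay between N2 and the other lines. Of nrde-1 over emb-4, the ratio went from 1.54 and 1.34 in N2 to between 2.97 and 3.8 in lines 2 to 4. In young mothers the nrde-1 to nrde-4 ratio was 2.21 and 1.81 in N2 and 1.85 and 1.45 in rde-11, which overlapped.

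**Figure D2:**
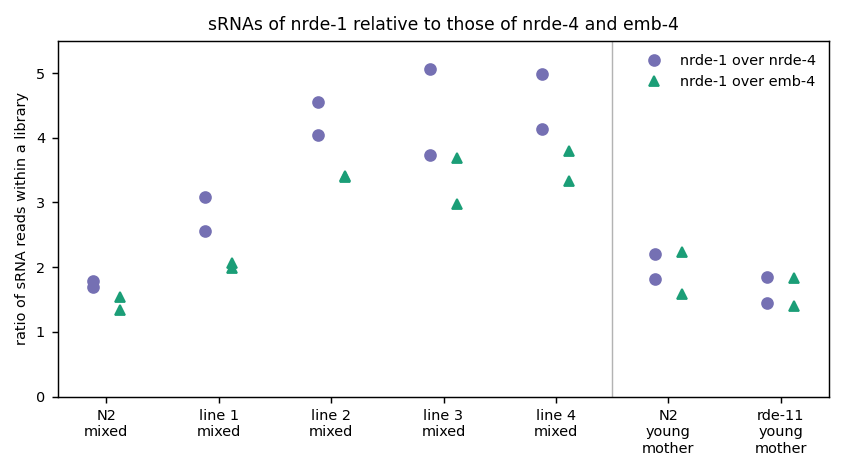
Ratio of sRNA reads within each library, nrde-1 over nrde-4 (circles) and nrde-1 over emb-4 (triangles), in 5 mixed-population and 2 young-mother groups. Each symbol is 1 library. Both ratios were higher in all libraries of lines 2 to 4 (2.97 to 5.06) than in the N2 mixed libraries (1.34 to 1.79). They were examined after the values were seen and are given as a description.

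Of the histone methyltransferase genes, met-2, whose product adds the first methyl groups to lysine 9 of histone H3, held 238 and 195 RPM in N2 and, for lines 1 to 4 in turn, 215 and 192, 165 and 163, 154 and 153, and 157 and 137. Libraries of lines 2 to 4 lay below both N2 libraries, and line 1 overlapped them. Of its log2 changes of −0.08, −0.39, −0.48 and −0.55 only that of line 4 was called (limma adjusted p = 0.0295), and under TMM they were 0.23, 0.08, 0.08 and 0.06. set-25 encodes the enzyme that completes trimethylation of lysine 9. It stood at 98.3 and 77 RPM in N2 and, for lines 1 to 4 in turn, 84.3 and 74.5, 59 and 66.1, 59.8 and 60.7, and 62.3 and 59.3. Lines 2 to 4 did not reach the N2 range, and the calls in lines 3 and 4 had log2 changes of −0.52 and −0.51 with limma adjusted p-values of 0.0411 and 0.0416. Under TMM the set-25 changes were 0.17, −0.01, 0.03 and 0.09 in lines 1 to 4.

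set-32 encodes a histone methyltransferase that acts in nuclear RNAi inheritance. Its sRNAs stood at 80.2 and 53.4 RPM in N2 and, for lines 1 to 4 in turn, 66.4 and 45.4, 41.7 and 45.4, 35 and 43, and 43.7 and 40.9. The replicates of N2 and of line 1 were themselves far apart, and lines 2 to 4 lay below both N2 libraries. log2 changes of −0.58, −0.74 and −0.62 were called lower in lines 2 to 4 (limma adjusted p = 0.0223, 0.00655 and 0.0142), and under TMM they were −0.12, −0.19 and −0.02. Without N2 replicate 1, which held the higher value, the set-32 changes were −0.29, −0.45 and −0.33, with limma adjusted p-values of 0.149, 0.0443 and 0.113. The calls of met-2, set-25 and set-32 were each lost without either library of the line, and those of met-2 and set-25 also without N2 replicate 1.

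hpl-1 encodes one of the worm's HP1 proteins. Its N2 libraries disagreed, at 36.8 and 17.8 RPM, and line libraries lay at 22.6 and 11.5, 19.2 and 17.5, 16 and 13.7, and 13.9 and 11.1 in lines 1 to 4. Lines 3 and 4 lay below both N2 libraries and were called lower, with log2 changes of −0.76 and −0.99 (limma adjusted p = 0.0123 and 0.000611). Under TMM the hpl-1 changes in lines 1 to 4 were −0.34, −0.01, −0.22 and −0.41, and none was called (limma adjusted p = 0.645, 0.981, 0.582 and 0.297). The TMM changes in lines 3 and 4 were 0.28 and 0.14 without N2 replicate 1, and −0.71 and −0.89 without N2 replicate 2. Without N2 replicate 1 the hpl-1 changes on RPM in lines 3 and 4 were −0.25 and −0.49, and neither was called. The hpl-1 call in line 3 was also lost without either library of line 3, and that in line 4 without line 4 replicate 2. hpl-2, the HP1 gene with roles in germline development, ranged from 33.5 to 51.3 RPM over the 10 libraries, with N2 at 49.1 and 47.9. It was called in no line, with log2 changes of −0.03, −0.15, −0.24 and −0.35 (limma adjusted p = 0.943, 0.562, 0.341 and 0.155), and under TMM they were 0.28, 0.31, 0.31 and 0.25.

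**Figure D3:**
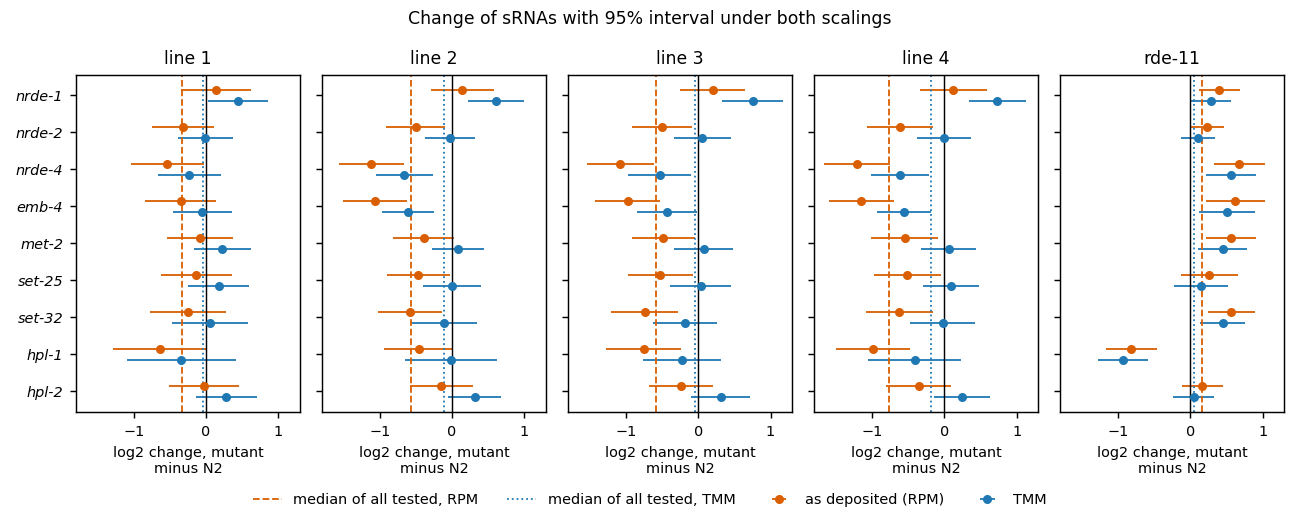
log2 change of sRNAs (mutant minus N2) for each of the 9 genes in lines 1 to 4 and rde-11, with 95% intervals from limma, on RPM as deposited (orange) and after TMM (blue). Dashed and dotted lines mark the median of all genes tested under each scaling. nrde-1 lies to the right of the medians in lines 2 to 4 (0.61 to 0.76 under TMM), nrde-4 and emb-4 lie to their left, and hpl-1 is alone on the left in rde-11 (−0.93 under TMM).

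The lines were also compared with each other, without the N2 libraries. On RPM as deposited, a limma F test over the 4 line means called 2 of the 9 genes, beside 27.3% of 6006 tested genes. These were emb-4 (limma adjusted p = 0.0112) and nrde-4 (limma adjusted p = 0.0388), with the highest line mean, that of line 1, above the lowest by 0.79 and 0.67 in log2. For nrde-1 the lines spanned 0.07 in log2, and the limma adjusted p was 0.95. Under TMM the F test called 0 of the 9, with limma adjusted p-values of 0.0727 for emb-4 and 0.309 for nrde-4, beside 10.4% of tested genes. edgeR on recovered reads called 0 of the 9 as well, beside 9.92%, and without single libraries limma called 1 to 4 as deposited.

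Other genes of both pathways were counted from lists. Of 10 nuclear RNAi partner genes (among them the Argonautes hrde-1, nrde-3, prg-1 and wago-4), 0, 7, 6 and 8 were called lower in lines 1 to 4 and 0 higher, with median log2 changes of −0.25, −0.62, −0.69 and −0.72. Of all tested genes 13.8, 52.8, 54.4 and 66.7% were called lower and 3.03, 5.83, 5.83 and 5.4% higher, with medians of −0.34, −0.56, −0.59 and −0.77. Under TMM 0 of the 10 were called in any line, beside 7.71, 9.93, 8.67 and 13.1% of tested genes called lower. In line 2 the largest were prg-1, the Piwi Argonaute of the piRNA pathway, from 445 to 240 RPM (log2 change of −0.89), rsd-6 at −0.82, wago-4 at −0.81 and morc-1 at −0.74. The same 4 genes led in line 3 (prg-1 −0.90, rsd-6 −0.85, morc-1 −0.85 and wago-4 −0.77), and rsd-6 led in line 4 at −1.05, with prg-1 at −0.91, rsd-2 at −0.86 and wago-4 at −0.82. Each of these log2 changes on RPM had a limma adjusted p of at most 0.00255, and under TMM each kept its sign, with adjusted p-values of 0.101 to 0.468.

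Of 20 chromatin partner genes, 18 passed the filter, and 0, 12, 11 and 15 of them were called lower in lines 1 to 4 and 0 higher. Of all tested genes 13.8, 52.8, 54.4 and 66.7% were called lower. The chromatin partners had median log2 changes of −0.28, −0.65, −0.66 and −0.77 on RPM. mes-6, a subunit of the Polycomb complex that methylates lysine 27 of histone H3, led in line 2 at −1.10, followed by lin-61 at −0.95, mes-2 at −0.95 and mes-4 at −0.88. mes-2, the catalytic subunit, led in line 3 at −1.13, with hda-1 at −0.97, lin-61 at −0.95 and jmjd-2 at −0.95. hda-1, a histone deacetylase gene, led in line 4 at −1.03, with lin-61 at −1, mes-2 at −0.98 and spr-5 at −0.96. Under TMM limma called mes-6 lower in line 2 and mes-2 lower in line 3, and no chromatin partner lower in line 4. Under that scaling 9.93, 8.67 and 13.1% of tested genes were called lower and 12.2, 16.1 and 13.6% higher in lines 2 to 4. The other named changes kept their sign under TMM, with adjusted p-values of 0.0675 to 0.168. Called higher under TMM were cec-4, which anchors heterochromatin at the nuclear periphery, in lines 2, 3 and 4 (log2 changes of 0.81, 0.90 and 0.76, limma adjusted p = 0.00805, 0.00135 and 0.011) and the synMuv gene lin-13 in lines 3 and 4 (0.58 and 0.54, limma adjusted p = 0.0309 and 0.0398). On RPM cec-4 changed by 0.35, 0.35 and 0.17 in lines 2 to 4 and lin-13 by 0.015 and −0.07 in lines 3 and 4, and none of these was called. sRNAs of meiotic germline marker genes were lower in the same libraries, with 0, 10, 10 and 10 of 11 called lower in lines 1 to 4 on RPM, where 13.8, 52.8, 54.4 and 66.7% of tested genes were, and 0, 1, 1 and 1 under TMM, and summed values of 1514 and 1261 RPM in N2 and 751 to 837 in lines 2 to 4. Of 9 oocyte and early embryo markers 1, 7, 7 and 8 were called lower on RPM and 0, 1, 1 and 0 under TMM, with sums of 792 and 561 RPM in N2 and 361 to 405 in lines 2 to 4. Of 5 body wall muscle markers the 2 tested were called lower in each line, and 1, 1, 1 and 0 under TMM, with sums of 62.7 and 68.3 RPM in N2 and 22.8 to 40.2 in the lines. Of 8 sperm markers the 1 tested was called lower in each line under both scalings, with sums of 141.9 and 170.9 RPM in N2 and 58.7 to 83.6 in the lines. No marker of these 4 lists was at 0 in all libraries. Of 3 tested neuron markers 0, 1, 1 and 0 were called higher and 0, 1, 1 and 1 lower on RPM in lines 1 to 4. Under TMM 0, 1, 1 and 1 neuron markers were called higher and 0 lower. The 1 tested skin marker was called lower in line 4 on RPM and in no line under TMM. Of 3, 2, 2 and 2 tested intestinal markers 0, 0, 0 and 1 were called higher and 0 lower on RPM, and 0 under TMM. Summed sRNAs of 5 intestinal markers differed between the line 4 replicates, at 49.7 and 235 RPM. The part of these markers in the members' changes was not tested.

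By root mean square (rms) difference of centred log2 profiles over the 10 mixed libraries, the gene most like nrde-1 among 5538 protein-coding genes was F37B12.3 (0.0651), against a median of 0.39 over all genes. For nrde-4 it was map-2 (0.0546) and for emb-4 sun-1 (0.0659). jhdm-1 was nearest to both met-2 (0.0448) and set-25 (0.0549). nrde-2 was most like ddi-1 (0.0531), set-32 most like symk-1 (0.0727), hpl-2 most like elof-1 (0.076) and hpl-1 most like H35N09.2 (0.15). Among the 9 genes themselves, met-2 and set-25 were 0.066 apart and nrde-4 and emb-4 0.092 apart, whereas nrde-1 and nrde-4 were 0.53 apart. All profiles share the libraries and their scaling, so the values describe likeness only.

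Some of the genes share genome sequence with others in a later assembly (WBcel235), and the strand setting of the counts is not given in the sources used here. nrde-1 overlaps C14B1.8, whose sRNAs stood at 25.2 and 13.6 RPM in N2 and 7.37 and 7.15 in line 4 (log2 change of −1.24, limma adjusted p = 0.000231; −0.68 and 0.109 under TMM). In young mothers C14B1.8 stood at 12.7 and 16.7 RPM in N2 and 23.4 and 21.1 in rde-11. That log2 change of 0.577 was called higher (limma adjusted p = 0.0498), as was nrde-1 there, and under TMM it was 0.465 (limma adjusted p = 0.106). nrde-4 overlaps cima-1, which held at most 3.40 RPM in the mixed libraries, and emb-4 overlaps ceh-51, which held at most 0.185. set-25 overlaps unc-64 and F56A8.8, which held at most 3.69 and 3.09 RPM, and the piRNA gene 21ur-12617, which was at 0 in all mixed libraries and held 0.705 to 1.48 RPM in young mothers. The other 5 genes overlap no gene there. How shared reads were assigned is not known, so reads of nrde-1, nrde-4, emb-4 and set-25 are uncertain to that extent.

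In rde-11 young mothers, sRNAs of hpl-1 were called lower and those of 5 other members higher on RPM, where the median log2 change of all tested genes was 0.16. Under TMM 2 members were called higher, and hpl-1 was again called lower. The hpl-1 values were 29.8 and 32.2 RPM in N2 and 17.7 and 16.6 in rde-11. Both rde-11 libraries lay below both N2 libraries, and replicates differed little. The mean went from 31 ± 1.64 RPM to 17.2 ± 0.762 (SD, n = 2), a log2 change of −0.82 with a standard error of 0.16 and a limma adjusted p of 0.0069. It was 0.98 below the median of all genes tested, and 4.19% of tested genes had a lower change. Of the 9 genes hpl-1 alone was called lower, beside 8.56% of tested genes. The call held without each library in turn (limma adjusted p = 0.0109 to 0.0369), under TMM (log2 change of −0.93, limma adjusted p = 0.00307, beside 10.9% of tested genes called lower) and in the authors' deposited table (log2 change of −0.94, adjusted p = 0.0223, beside 5.2%). Its reads numbered 127 and 156 in N2 and 72 and 82 in rde-11. hpl-2 did not move with it, at 76.8 and 73.4 RPM in N2 and 82.2 and 86.5 in rde-11 (log2 change of 0.17, or 0.05 under TMM, limma adjusted p = 0.357), so the hpl-2 to hpl-1 ratio was 2.57 and 2.28 in N2 and 4.64 and 5.2 in rde-11.

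**Figure D4:**
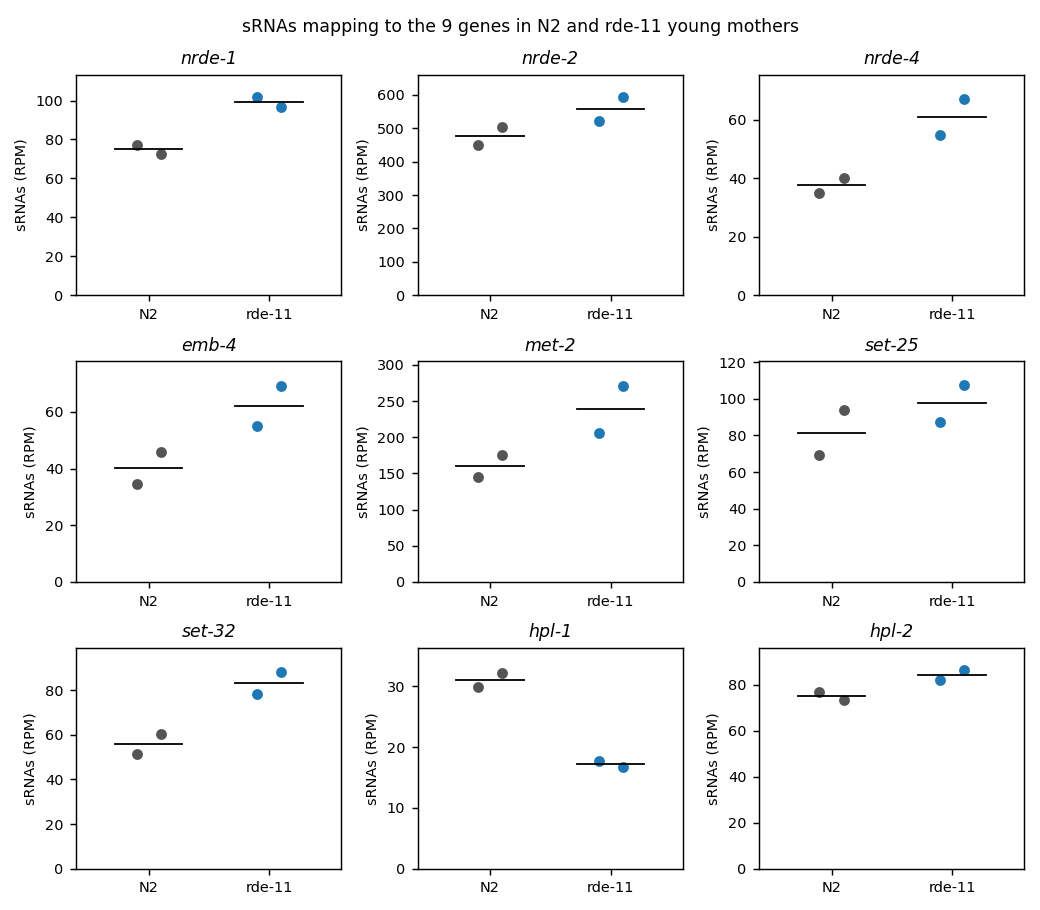
sRNAs mapping to each of the 9 genes in N2 and rde-11(hj37) young mothers, in RPM. Points are single libraries and black lines are group means. hpl-1 was lower in both rde-11 libraries (16.6 and 17.7 RPM against 29.8 and 32.2 in N2), and the other genes except set-25 were higher in both, as were 48.3% of tested genes.

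Among the nuclear RNAi genes in rde-11, nrde-4 showed the largest log2 change, at 35 and 40.2 RPM in N2 and 54.9 and 67 in rde-11. emb-4 stood at 34.5 and 45.8 RPM in N2 and 55.1 and 69 in rde-11, and nrde-1 at 77.3 and 72.5 and at 102 and 96.8. Both rde-11 libraries lay above both N2 libraries for these 3 genes and for 7 of the 9 in all, beside 48.3% of tested genes, and below for 1, beside 19.3%. On RPM their log2 changes of 0.68, 0.62 and 0.40 were called higher, with limma adjusted p-values of 0.0142, 0.033 and 0.0424. Under TMM they were 0.56, 0.51 and 0.28, and only the first was called (limma adjusted p = 0.0292, 0.0682 and 0.142). nrde-2 went from 451 and 503 RPM to 521 and 594, a log2 change of 0.22 (0.10 under TMM) with a limma adjusted p of 0.142, which was not called.

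Of the methyltransferase genes, met-2 stood at 145 and 175 RPM in N2 and 206 and 271 in rde-11, and set-32 at 51.4 and 60.4 and at 78.3 and 87.9. Neither overlapped between the groups, and both were called higher, with log2 changes of 0.56 and 0.57 and limma adjusted p-values of 0.0278 and 0.0208. Under TMM they were 0.45 and 0.45, with limma adjusted p-values of 0.0649 and 0.0496. set-25 overlapped, at 69.3 and 93.8 RPM in N2 and 87.4 and 108 in rde-11 (log2 change of 0.26, or 0.15 under TMM, limma adjusted p = 0.286).

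The 5 of 9 genes called higher in rde-11 stood beside 18.3% of all tested genes on RPM. Under TMM limma called 2 of them, nrde-4 (0.56, adjusted p = 0.0292) and set-32 (0.45, adjusted p = 0.0496), beside 9.92% of tested genes. The authors' deposited table calls 0 of the 9 higher, beside 4.66%, with adjusted p-values of 0.0719 to 0.362 for the 5. edgeR called nrde-4 and set-32 higher, beside 10.1%, and DESeq2 called 0 higher, beside 5.75%, while both called hpl-1 lower, beside 10.9 and 8.42%. On RPM as deposited, the calls of nrde-4, emb-4, met-2 and set-32 were lost without N2 replicate 1 (limma adjusted p = 0.128 to 0.251) and without rde-11 replicate 2 (limma adjusted p = 0.0923 to 0.177). The nrde-1 call was lost without each library in turn. Under TMM the nrde-4 call was lost without the same pair of libraries, and the set-32 call without those and without N2 replicate 2.

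Of the 10 nuclear RNAi partners in rde-11 5 were called higher and 0 lower on RPM, where 18.3% of tested genes were called higher, and 1, rsd-6, under TMM, where 9.92% were. rsd-6 went from 26.8 to 47.8 RPM (log2 change of 0.81, or 0.70 under TMM), nrde-3 from 9.58 to 16.3 (0.71), ama-1 from 295 to 417 (0.49) and rsd-2 from 46.7 to 63 (0.42), the last 3 being positive but not called under TMM (limma adjusted p = 0.0532 to 0.136). Of 18 tested chromatin partners 9 were called higher and 0 lower on RPM, and 6 under TMM, beside the same shares of all genes. let-418, which encodes a Mi-2 chromatin remodeller, went from 141 to 292 RPM, a log2 change of 1.04 with a limma adjusted p of 0.00326. It was followed by mes-3 at 0.88, the histone H3 lysine 4 methyltransferase gene set-2 at 0.87 and mes-6 at 0.84, and all 4 were called under TMM. The median change of the chromatin partners was 0.49 and that of the 9 genes 0.40, against 0.16 for all genes tested. sRNAs of meiotic germline marker genes were also higher, with 6 of 11 called on RPM and 1 under TMM, a median log2 change of 0.47 and summed sRNAs of 1070 and 1377 RPM in N2 and 1556 and 1803 in rde-11. Of 9 oocyte and early embryo markers 3 were called higher and 0 lower on RPM, with a median of 0.17. Under TMM 1 of the 9 was called higher and 1 lower. Of 2 tested sperm markers 1 was called higher on RPM and 0 under TMM, with a median of 0.22 on RPM. Of the 7 tested markers of muscle, intestine, skin and neurons 3 were called lower and 0 higher on RPM, where 8.56% of all tested genes were called lower. Under TMM 1 muscle, 2 intestinal, 0 skin and 1 neuron markers were called lower and 0 higher, beside 10.9% of tested genes called lower. The part of these markers in the changes was not tested.

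mRNAs of the 9 genes in meg-3 meg-4 line 1 young mothers differed little from N2. The mRNA values are a signal scaled per library by the authors. 8 of the 9 genes passed the filter, and hpl-1, at 3.79 and 3.94 in N2 and 3.83 and 4.10 in line 1, did not. 1 of the 8, hpl-2, was called lower and 0 higher, beside 10.3 and 4.18% of tested genes. The median log2 change of the 8 was −0.15, against −0.11 for all genes tested.

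hpl-2 mRNA stood at 65.9 and 66.7 in N2 and 56 and 54.4 in line 1. Replicates were close and the groups apart, and 53.8% of tested genes likewise had both line 1 libraries below both N2 libraries. The mean went from 66.3 ± 0.588 to 55.2 ± 1.17 (SD, n = 2), a log2 change of −0.26 with a limma adjusted p of 0.0408, and −0.27 with an adjusted p of 0.0399 in the authors' deposited table, where it is the 1 member called, beside 9.48% called lower and 4.38% higher. Under TMM the limma adjusted p was 0.051 at a log2 change of −0.23, and 0 of the 8 were called, beside 5.59% of tested genes lower and 3.86% higher. edgeR (adjusted p = 0.0523) and DESeq2 (adjusted p = 0.215) called 0 as well, beside 5.76 and 2.97% lower and 3.93 and 10.9% higher. On the deposited signal, without each library in turn, the limma adjusted p lay between 0.0581 and 0.16.

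For emb-4 the mRNA values were 280 and 307 in N2 and 244 and 260 in line 1, and for met-2 they were 209 and 237 and then 186 and 201. Both genes were lower in each line 1 library than in each N2 library, and neither was called (log2 changes of −0.22 and −0.20, limma adjusted p = 0.0638 and 0.0874). Both line 1 libraries lay below both N2 libraries for 6 of the 8 genes, beside 53.8% of tested genes, and above for 0, beside 20.1%. nrde-4 was at 166 and 181 in N2 and 156 and 155 in line 1, a log2 change of −0.16 with a limma adjusted p of 0.104. set-25 went from 107 and 102 to 94.2 and 99 and set-32 from 39.2 and 41.2 to 37.1 and 35.9, with log2 changes of −0.11 and −0.14 and limma adjusted p-values of 0.203 and 0.172. nrde-2 overlapped, at 154 and 173 and at 157 and 168 (95% interval of the log2 change −0.18 to 0.16), and so did nrde-1, at 56.5 and 65.4 and at 56.1 and 57.8 (−0.29 to 0.10). Neither was called (limma adjusted p = 0.95 and 0.38). Under TMM the 8 mRNA changes lay between −0.23 and 0.02, with nrde-2 alone above 0.

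**Figure D5:**
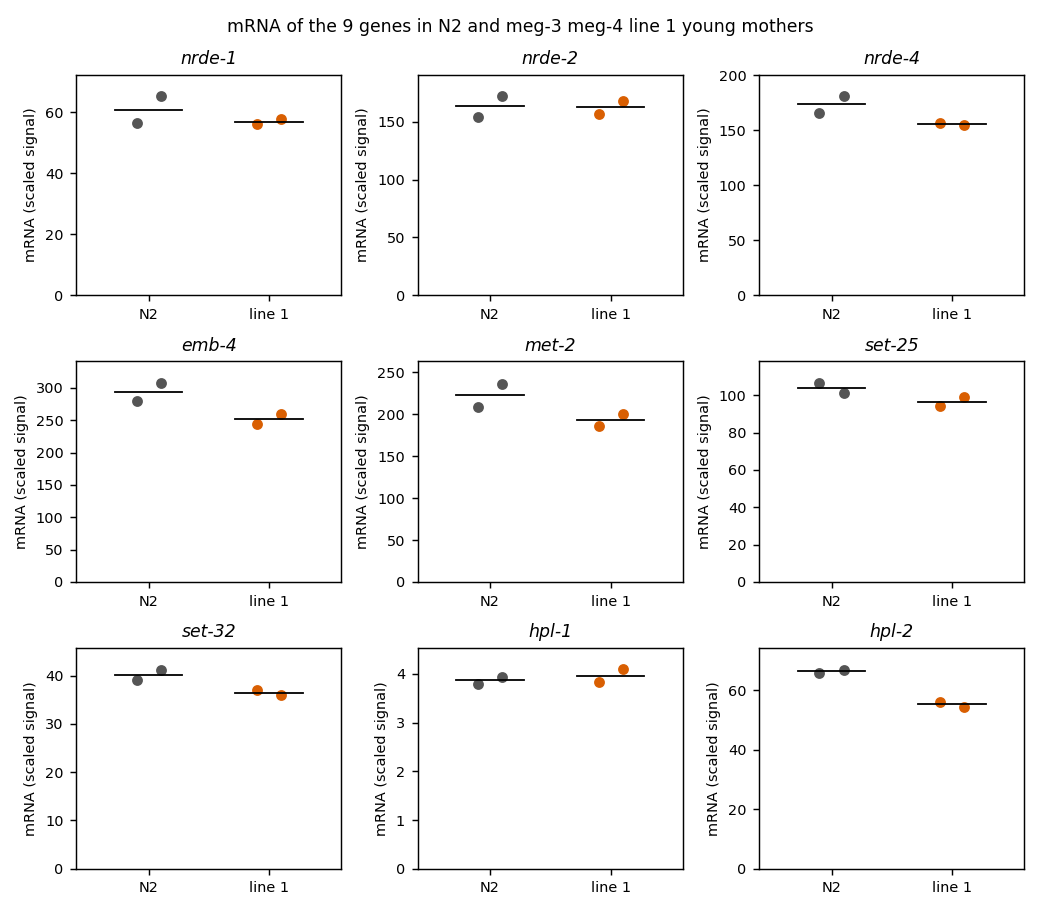
mRNA of each of the 9 genes in N2 and meg-3 meg-4 line 1 young mothers, as the authors' scaled signal. Points are single libraries and black lines are group means. hpl-2 was lower in both line 1 libraries (54.4 and 56 against 65.9 and 66.7 in N2), as were 53.8% of tested genes. nrde-1 and nrde-2 overlapped between the groups.

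Among the partners, mRNA of hrde-1, the germline nuclear RNAi Argonaute, fell from 966 to 752 (log2 change of −0.36, limma adjusted p = 0.0278, and −0.34 with 0.0359 under TMM), and it was the 1 of 10 nuclear RNAi partners called. Of 19 tested chromatin partners 4 were called lower, arle-14 (−0.35), the chromodomain gene cec-3 (−0.28), mes-4 (−0.23) and lin-65 (−0.22), with limma adjusted p-values of 0.0375 to 0.0486. 2 of these, arle-14 and cec-3, were called under TMM. Of all tested genes 10.3% were called lower and 4.18% higher on the deposited signal, and 5.59 and 3.86% under TMM. Oocyte and early embryo markers were lower in the same libraries, with 7 of 9 called lower on the deposited signal and 6 under TMM, a median log2 change of −0.32 and summed mRNA of 6921 and 6615 in N2 and 5385 and 5399 in line 1. Of 11 meiotic germline markers 2 were called lower, and of 4 tested sperm markers 1 was called higher. Of the 14 tested markers of muscle, intestine, skin and neurons 0 were called. Their median log2 changes were 0.21 in muscle, 0.285 in intestine, 0.011 in skin and −0.087 in neurons. Summed mRNA of muscle markers was 4493.6 and 4638.9 in N2 and 4879.7 and 6086.5 in line 1. For intestine the sums were 10695 and 10694 in N2 and 12121 and 15047 in line 1. The part of these markers in the mRNA changes was not tested.

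The sRNA and mRNA values of line 1 came from different stages and foods, so they stand side by side without a test. hpl-2 was the 1 member with mRNA called lower on the deposited signal. Its sRNAs stood at 48.5 ± 0.868 RPM in N2 and 47.8 ± 4.95 in line 1 (SD, n = 2). nrde-4 and emb-4, whose sRNAs were lowest against N2 in the other lines, had mRNA at 0.897 and 0.859 times N2 in line 1. mRNA of lines 2 to 4 and of rde-11 was not analysed here.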

How the data were processed

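sRNAs and mRNAs of whole worms were measured in 18 libraries. A polyphosphatase step preceded the TruSeq Small RNA preparation of sRNAs, and ribosomal RNA depletion and ERCC spike-in RNAs preceded the TruSeq preparation of mRNAs, per the labels' protocols. Tools named without version or role in the submitters' processing notes are DESeq2, HTSeq, HISAT2, Bowtie2 and cutadapt, with build ce10. Annotation, strand setting and filters are not given in the sources used here, so sense and antisense reads could not be separated.

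The sRNA values are RPM as deposited by the authors, and each library sums to 1e+06. The mRNA values are a signal that the authors scaled per library before deposit, with sums of 978966 to 1026428. The authors' log2 fold change and adjusted p-value stand beside the values, per the file headers. Dividing each library by the value of 1 read gave whole reads for 100% of values within 0.02.

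The test was limma 3.58.1 with a mean trend (R 4.3.3) on log2(value + 1) for genes averaging 10 or more over a table's 4 libraries, with Benjamini-Hochberg adjustment over all of them and a call below 0.05. The added 1 makes changes of low genes smaller than their ratios. A raw-count test was planned for raw counts and replaced because the values are normalized. edgeR 4.0.16 and DESeq2 1.42.0 on recovered reads, TMM scaling, other added constants (0.5 and 5), no filter, a replicate block, single libraries left out, all 10 mixed libraries in 1 fit and the deposited p-values were alternatives. The fits were also run on simulated data in which few genes changed, equally many higher and lower. Those simulations cannot speak to a shift of most genes, as between N2 and the lines. hpl-1 had 47 to 188 reads per library.

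The 9 genes, the partner and marker lists and the naming rule were chosen with earlier results of these data known. Named partners are up to 4 called genes per list and comparison with the largest log2 change, and cec-4 and lin-13 were named after their TMM values were seen. Symbols arle-14, meg-3 and meg-4 and a few others were matched by WormBase identifier. No gene positions or sequences are given, because no genome of the files' build was used here.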

Additional observations from a re-analysis of the deposited data

Results flagged for a closer look

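2 of the 9 genes differed among the 4 meg-3 meg-4 lines, compared with each other without the N2 libraries, beside 27.3% of 6006 tested genes, so the count is not particular to these genes. For emb-4 the limma F test over the line means gave an adjusted p of 0.0112 on RPM as deposited, with line 1 at 38.7 RPM and lines 2, 3 and 4 at 23.1, 24.9 and 21.9. For nrde-4 the adjusted p was 0.0388, with line 1 at 28.1 RPM and lines 2, 3 and 4 at 18.3, 19.1 and 17.2. In both genes the 2 libraries of line 1 were above all libraries of the other lines. Line 1 libraries held 4.07 and 4.1 M reads on genes, near N2 (4.21 and 3.82 M), whereas lines 2 to 4 held 5.26 to 7.47 M. Line and library depth therefore cannot be told apart here. Under TMM the limma adjusted p-values were 0.0727 for emb-4 and 0.309 for nrde-4, and by edgeR on recovered reads they were 0.0724 and 0.288.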

How the results depend on the processing

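On values as deposited, limma called 0, 4, 6 and 7 of the 9 genes lower and 0 higher in lines 1 to 4, 1 lower in the mRNA, 5 higher and 1 lower in rde-11, and 2 between lines. These counts moved with the scaling and with single libraries, and the cause was not tested. Called higher in lines 2, 3 and 4 were 1, 1 and 1 under TMM, edgeR and DESeq2 and 0, 1 and 1 in the authors' deposited tables. Called lower in lines 2, 3 and 4 were 2, 0 and 2 under TMM and edgeR, 0, 0 and 0 by DESeq2 and in the authors' deposited tables, and 2, 2 and 3 with no filter, where more genes were tested and 8.33, 9.73 and 14.6% of them were called lower. In the mRNA 0 were called lower under TMM, edgeR, DESeq2 and with no filter. In rde-11 the 5 called higher became 2 under TMM and edgeR and 0 by DESeq2 and in the authors' deposited table, and hpl-1 was called lower in each of these. Between lines 0 were called under TMM and edgeR. With all 10 mixed libraries in 1 fit, 1, 6, 7 and 7 were called lower in lines 1 to 4, beside 25.4, 55.1, 57.5 and 68% of tested genes. Without single libraries the genes called lower ranged from 0 to 2, 2 to 7, 0 to 7 and 2 to 7 in lines 1 to 4, where the share of tested genes ranged from 6.86 to 27.9, 11.1 to 63.6, 9.45 to 65.1 and 27.6 to 70.1%. In the mRNA they were 0 throughout, beside 0.0919 to 8.22%. Those called higher in rde-11 ranged from 0 to 4, beside 2.95 to 17.7%, and those between lines from 1 to 4, beside 15.2 to 27.7%. These counts are read against those shares, not as a result about the 9 genes. Added constants of 0.5 and 5 left every count within 1.5 times.

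The replicate numbers are not stated to pair libraries. Deviations of same-numbered libraries correlated at 0.52, 0.078, −0.13 and −0.21 in lines 1 to 4, 0.23 in the mRNA and 0.40 in rde-11, with 2 pairs each. With a replicate block 2, 6, 4 and 7 were called lower in lines 1 to 4, 3 in the mRNA, 7 higher and 1 lower in rde-11 and 3 between lines (beside 36.8%), beside 36.5, 56.7, 38.6, 67.5 and 22.7% of tested genes lower in lines 1 to 4 and the mRNA and 36.8% higher in rde-11. With crossed numbers, chosen after seeing the data, 6 and 5 were called lower in lines 3 and 4, beside 58.1 and 64% of tested genes. TMM without each library in turn was also added after seeing the data.

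Log2 changes that turned sign are listed by alternative, and the cause was not tested. Under TMM, in line 1 they were met-2 0.23, set-25 0.17, set-32 0.056 and hpl-2 0.28. In line 2 they were met-2 0.078 and hpl-2 0.31. In line 3 they were nrde-2 0.058, met-2 0.077, set-25 0.034 and hpl-2 0.31. In line 4 they were met-2 0.061, set-25 0.094 and hpl-2 0.24. In line 1 mRNA they were nrde-2 0.020. With edgeR on recovered reads, in line 1 they were met-2 0.22, set-25 0.17, set-32 0.055 and hpl-2 0.29. In line 2 they were met-2 0.074 and hpl-2 0.32. In line 3 they were nrde-2 0.053, met-2 0.072, set-25 0.025 and hpl-2 0.32. In line 4 they were met-2 0.058, set-25 0.087 and hpl-2 0.26. In line 1 mRNA they were nrde-2 0.021. With DESeq2 on recovered reads, in line 1 they were nrde-2 0.038, met-2 0.27, set-25 0.22, set-32 0.11 and hpl-2 0.34. In line 2 they were nrde-2 0.065, met-2 0.18, set-25 0.095, hpl-1 0.028 and hpl-2 0.42. In line 3 they were nrde-2 0.092, met-2 0.11, set-25 0.067 and hpl-2 0.35. In line 4 they were nrde-2 0.17, met-2 0.24, set-25 0.27, set-32 0.14 and hpl-2 0.43. In line 1 mRNA they were nrde-1 0.0078 and nrde-2 0.10. For the authors' deposited tables, in line 1 they were met-2 0.21, set-25 0.16, set-32 0.043 and hpl-2 0.28. In line 2 they were met-2 0.095, set-25 0.0097 and hpl-2 0.35. In line 3 they were nrde-2 0.027, met-2 0.045 and hpl-2 0.29. In line 4 they were nrde-2 0.031, met-2 0.10, set-25 0.13 and hpl-2 0.30. Without single libraries, in line 1 they were met-2 from −0.23 to 0.059, set-25 from −0.31 to 0.042, set-32 from −0.54 to 0.040, nrde-1 from −0.045 to 0.32 and hpl-2 from −0.13 to 0.078. In line 2 they were hpl-1 from −0.97 to 0.041 and nrde-1 from −0.041 to 0.32. In line 4 they were nrde-1 from −0.054 to 0.31. In line 1 mRNA they were nrde-1 from −0.20 to 0.010 and nrde-2 from −0.086 to 0.074.

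Each group had 2 libraries, and many calls were lost without 1 of them. RPM and the mRNA signal are relative values, and a change in the total amount of sRNA per worm cannot be told apart from a change of single genes. The fewest reads for any of the 9 genes in a library were the 47 of hpl-1 in line 1 replicate 2.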
